A study of Mus musculus with 12 samples.

Results

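The genotype by stimulation interaction asks whether splenic B cells with deletions of the genes for hnRNP A1 and hnRNP A2B1 answer to anti-CD40 and anti-IgM as wild-type (WT) cells do. It is the difference of double knockout (DKO) minus WT in stimulated cells, less the same difference in untreated cells, on the log2 scale. A positive term thus means that the DKO response lay above the WT response. All 10 numbered or stimulated libraries of the 12 in the series entered, and the 2 additional WT libraries of untreated cells did not. Of 55349 genes joined by identifier, 15006 had enough counts to be tested.

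Poly(A) RNA was sequenced from mouse spleen B cells that had been purified by removing CD43-bearing cells with magnetic beads. There were 3 WT and 3 DKO libraries of untreated cells, whose RNA was taken straight after purification. A further 2 WT and 2 DKO libraries came from cells kept in culture for 48 h with anti-CD40 at 1 µg/mL and anti-IgM at 10 µg/mL. The DKO cells carried Cre-loxP deletions of Hnrnpa1 and Hnrnpa2b1, while the sources used here do not give the Cre driver, the strain or the age of the mice. Of the stimulated WT columns 1 carries a number that matches no title, so it was used by its group and is called the unnumbered WT library. Library totals ran from 15378747 to 21731893 counts. Nothing in the labels ties replicates to separate mice, and the p-values cover just the spread among these libraries. By the sex of the libraries, given below, each untreated group came from more than 1 mouse. Among libraries of the same sex the spread may be technical.

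Anti-IgM crosslinks the B cell receptor and anti-CD40 takes the place of T cell help, and together they drive resting B cells into growth and division. hnRNP A1 and hnRNP A2B1 bind RNA in the nucleus and act in splicing, RNA export and mRNA stability. Dividing B cells must hold down inhibitors of the cell cycle, among them p21, the product of Cdkn1a, which the tumour suppressor p53 switches on after DNA damage and other stress.

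Each response alone compares cultured with fresh cells that were deposited in separate tables, so stimulation, culture and table cannot be told apart in it. The interaction is free of such differences only as far as they acted alike on both genotypes. In bulk RNA, fewer cells that express a gene and less RNA per cell cannot be told apart. By their Xist and Y-linked counts the second untreated WT library and the first untreated DKO library read as female, and all others as male. Summed B cell identity markers stood between 7279 and 14970 CPM (counts scaled to library size, here with TMM factors) in every library. The stimulated DKO libraries differed from each other more than any other pair of the same group, with a chi-square of 50.6 per gene, against 9.82 for the stimulated WT pair.

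The targeted genes were lower in DKO libraries in both states. Hnrnpa1 stood at 715, 702 and 681 CPM in untreated WT and at 78.3, 203 and 102 CPM in untreated DKO libraries. In stimulated cells it stood at 1716 and 1638 CPM in WT and at 282 and 243 CPM in DKO. WT and DKO libraries did not overlap in either state, and transcripts of the gene were still counted in every DKO library. Protein was not measured. Hnrnpa2b1 ranged from 1736 to 1950 CPM in WT and from 341 to 630 CPM in DKO libraries across both states. The interaction was -0.22 ± 0.40 for Hnrnpa1 (± standard error, edgeR quasi-likelihood test with Benjamini-Hochberg adjusted p = 0.856) and -0.13 ± 0.29 for Hnrnpa2b1, at an edgeR adjusted p of 0.879.

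At an adjusted p under 0.05, 21 genes passed the interaction test, which is 0.14% of those tested. The term was positive for 20 of them (0.133%) and negative for 1 (0.00666%). The leading genes were Cdkn1a, the secreted peptide gene Adm, the CD30 receptor gene Tnfrsf8, the latent TGF-beta anchor gene Lrrc32 and the collagen gene Col27a1. The 1 gene with a negative term was Nlrc3, which codes for a cytosolic NLR protein known to restrain immune signalling. With library totals alone as scaling, 18 genes were higher and 4 lower, and with upper quartile scaling 21 were higher and 4 lower. A further 23 genes had an adjusted p between 0.05 and 0.06. At an unadjusted p under 0.05, 1168 genes were higher (7.78%) and 634 lower (4.22%), and the median term over all tested genes was 0.05, with 55.3% of terms positive.

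Stimulated against untreated WT cells, 2672 genes were higher (17.8%) and 3425 lower (22.8%). In DKO cells 2425 were higher (16.2%) and 2527 lower (16.8%). Across the 15006 genes the responses, which share no library, correlated with a Pearson r of 0.813 and a Spearman rho of 0.749, as a description over genes that are not independent and that share the difference between the tables. The standard deviation of the response over genes was 1.15 in WT and 1.13 in DKO, and that of the interaction was 0.70.

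**Figure D1:**
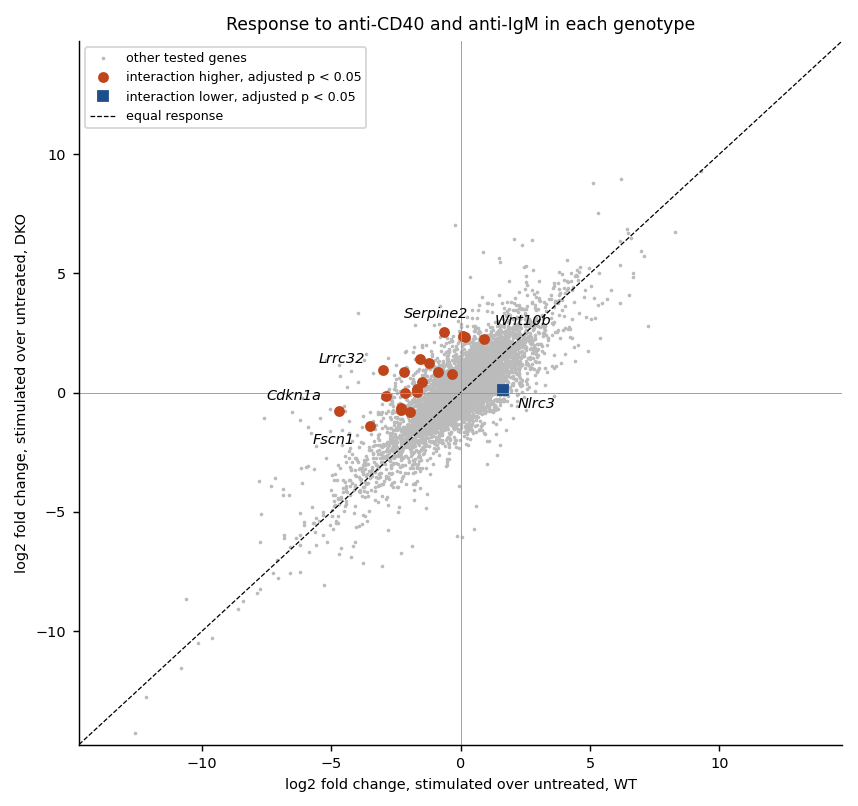
Log2 fold change of stimulated over untreated cells in DKO (vertical axis) against WT (horizontal axis), 1 point per tested gene. Orange points are the 20 genes with a positive interaction at an adjusted p under 0.05, the blue square is Nlrc3, and the dashed line marks an equal response; 17 of the 20 orange points lie left of the vertical axis, where WT cells had a negative response.

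Among the 20 genes with a positive term, the commonest course was a drop in WT that was absent or smaller in DKO. The fitted response was negative in WT and positive in DKO for 10 genes, negative in both for 7 and positive in both for 3. The WT response passed its own test as lower for 16 genes and as higher for 1, Wnt10b. The DKO response passed as higher for 11 genes and as lower for 5. Both stimulated DKO libraries lay above both stimulated WT libraries for all 20, against 31.3% of tested genes. In untreated cells all DKO libraries lay above all WT libraries for 8 (19.2% of tested genes) and below them for 5 (18.7%). Since these same libraries decided which genes passed, such counts describe the genes and are no support for them. The DKO to WT difference passed in stimulated cells for 19 of the 20, all higher, against 12.8% of tested genes. In untreated cells it passed for 5, of which Adm, Phlda3 and Serpine2 were higher (5.3% of tested genes) and Glipr1 and Ctla4 lower (7.76%).

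**Figure D2:**
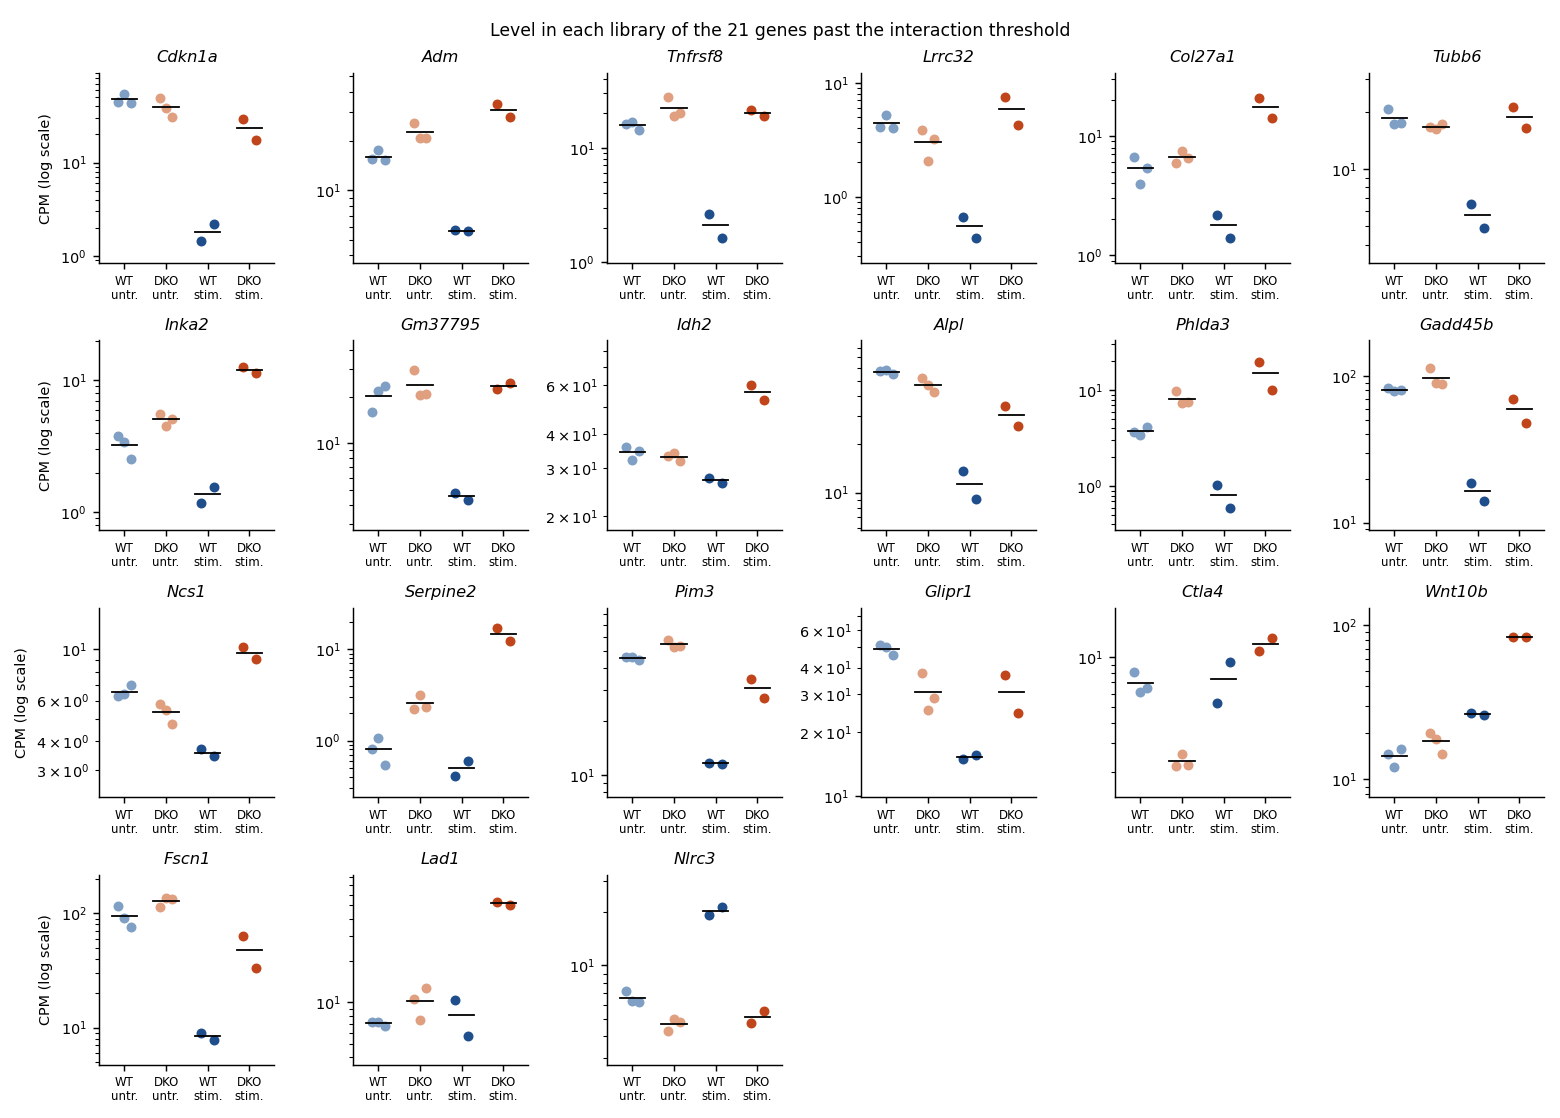
TMM-scaled CPM on a log axis in each of the 10 libraries (points) with the group mean (line), for the 21 genes past the interaction threshold. Stimulated WT libraries are the lowest group for most genes with a positive term, such as Cdkn1a with 1.43 and 2.21 CPM, and the highest group for Nlrc3.

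Cdkn1a (ENSMUSG00000023067, GRCm39 chr17:29309950-29319701, plus strand) codes for p21, which binds cyclin-dependent kinases and halts the cell cycle. Its level was 44.7, 53.9 and 43.6 CPM in untreated WT and 49.4, 38.5 and 31.1 CPM in untreated DKO libraries, which overlapped. After stimulation it was 1.43 and 2.21 CPM in WT but 29.2 and 17.4 CPM in DKO. The stimulated WT libraries were far below all others, and the stimulated DKO libraries lay below every untreated one. WT fell by 4.70 on the log2 scale and DKO fell by 0.76 (edgeR adjusted p = 4.12e-07 and 0.0253), and the interaction was 3.93 ± 0.38 (edgeR adjusted p = 0.00250). It stayed past the threshold in each of the 10 fits with 1 library left out, with terms from 3.52 to 4.27.

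The window before the upstream start of Cdkn1a is shown because it holds the pair of p53 half-sites for which this gene is the textbook example. It spans GRCm38.p6 chr17:29090729-29090978 on the plus strand in RefSeq, and the capitals mark the pair, 51 to 32 bases before that start.
Cdkn1a: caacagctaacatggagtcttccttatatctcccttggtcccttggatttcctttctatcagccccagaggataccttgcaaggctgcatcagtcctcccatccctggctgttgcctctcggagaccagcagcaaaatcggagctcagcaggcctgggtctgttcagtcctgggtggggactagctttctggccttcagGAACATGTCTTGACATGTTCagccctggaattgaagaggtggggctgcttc
Of the 20 genes with a positive term, 16 had 1 or more such windows of 250 bases in the RefSeq table, 19 windows in all. A pair of p53 half-sites with at most 1 mismatch, searched on both strands, was found in 1 of these 19, the one shown, in 0.0625% of the windows of tested genes and in 25 of all 32851 windows (0.0761%). The p53 search was added after the values had been seen, and a match describes letters only.

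Phlda3 (ENSMUSG00000041801, chr1:135693857-135696874, plus strand), a p53 target whose product restrains the kinase AKT, had 3.67, 3.40 and 4.13 CPM in untreated WT and 9.74, 7.31 and 7.46 CPM in untreated DKO libraries. Stimulated WT libraries had 1.02 and 0.59 CPM, and stimulated DKO libraries 19.8 and 10.1 CPM. DKO libraries were thus above WT in both states, and further so after stimulation. The DKO to WT difference was 1.13 in untreated and 4.20 in stimulated cells, and the interaction was 3.07 ± 0.46 (edgeR adjusted p = 0.0235). Left-out fits kept it past the threshold in 3 of 10, those without the second untreated WT, the first untreated DKO or the second stimulated DKO library. Without the unnumbered stimulated WT library the adjusted p was 0.178.

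The list of p53 and its targets held 27 tested genes of 29. Cdkn1a and Phlda3 passed (7.41% of the list, against 0.14% of all tested genes), both higher. At an unadjusted p under 0.05, 14 were higher (51.9%, against 7.78% of all genes) and 1 lower (3.7%, against 4.22%). The median term was 0.44, beside 0.05 over all genes. In untreated cells the list's median DKO to WT difference was 0.06 and in stimulated cells 0.57. The members, like all lists here, were chosen with earlier results of these data known, so the counts describe them. DESeq2 put 7 members past the threshold, against 1.16% of tested genes, and the count moved with the setting, as it did over all genes.

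**Figure D3:**
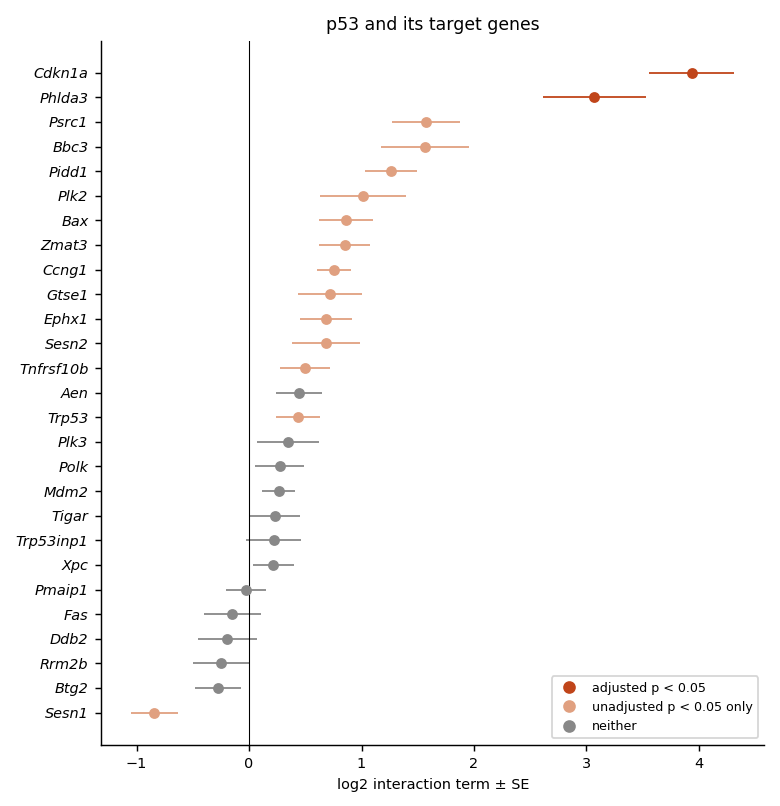
Log2 interaction term ± standard error for the 27 tested genes of the p53 list, coloured by whether the adjusted or only the unadjusted p was under 0.05. Cdkn1a and Phlda3 stand apart at 3.93 and 3.07, most others lie between 0 and 1.6, and Sesn1 is lowest at -0.84.

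None of the other list members named here passed after adjustment, and they were singled out after their values had been seen. Psrc1, a spindle protein gene, went from 8.90 to 13.3 CPM in untreated WT and 19.1 to 23.5 CPM in untreated DKO to 14.4 and 14.2 CPM in stimulated WT and 102 and 62.0 CPM in stimulated DKO. Its interaction was 1.57 ± 0.30 (edgeR adjusted p = 0.0597). Pidd1, part of the caspase-2 activating platform, stood between 20.8 and 28.7 CPM in all libraries except the stimulated DKO ones, which had 68.9 and 52.6 CPM. Its interaction was 1.26 ± 0.23 (edgeR adjusted p = 0.0533). Ccng1, which codes for cyclin G1, had 138 and 141 CPM in stimulated WT and 274 and 273 CPM in stimulated DKO libraries, and the term was 0.76 ± 0.15 (edgeR adjusted p = 0.0843). For all 3 genes both stimulated DKO libraries were the highest of the 10.

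Among the death genes of the list, Bbc3, which codes for the BH3-only protein PUMA, fell in WT from between 21 and 24.5 CPM to 2.97 and 4.04 CPM, and stimulated DKO libraries had 9.89 and 5.46 CPM. Its interaction was 1.57 ± 0.39 (edgeR adjusted p = 0.162). Bax, the pore-forming effector, had 29.9 and 29.7 CPM in stimulated WT and 69.3 and 43.2 CPM in stimulated DKO, with a term of 0.86 ± 0.24 (edgeR adjusted p = 0.215). Fas and Mdm2, both p53 targets, had terms of -0.15 ± 0.25 and 0.26 ± 0.15 (edgeR adjusted p = 0.840 and 0.500). Trp53 itself had 332 and 232 CPM in stimulated DKO and 196 and 184 CPM in stimulated WT libraries, with a term of 0.43 ± 0.20 (edgeR adjusted p = 0.406). The first stimulated DKO library was the higher of its pair for Bax, Bbc3 and Trp53, as it was for Cdkn1a and Phlda3. Sesn1 had the lowest term of the list, -0.84 ± 0.21 (edgeR adjusted p = 0.159), with 79.0 and 98.0 CPM in stimulated WT and 53.2 and 49.4 CPM in stimulated DKO.

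Gm37795 (chr4:150152996-150155454, plus strand) is a gene without a name of its own that the naming rule leaves out, and it was singled out after its values had been seen. The deposited tables place the Mir34a hairpin at chr4:150152911-150153012 on the same strand, so that its end overlaps the first bases of Gm37795. The microRNA miR-34a is known as a p53 target that curbs the cell cycle. Gm37795 ranged from 15.8 to 23.3 CPM in untreated WT and from 20.5 to 29.9 CPM in untreated DKO libraries, which overlapped. It had 4.77 and 4.32 CPM in stimulated WT but 22.2 and 24.5 CPM in stimulated DKO, a level within the range of untreated cells. The interaction was 2.14 ± 0.30 (edgeR adjusted p = 0.0166), and the call held in 5 of 10 left-out fits, with an adjusted p of up to 0.142 without the unnumbered stimulated WT library. Mir34a itself had 8 counts over the 10 libraries. Poly(A) libraries do not measure mature microRNAs, so the sequence below, with its seed (bases 2 to 8) in capitals, names the product of the locus and was not measured.
mmu-miR-34a-5p: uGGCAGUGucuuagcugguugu

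The list of brakes of the cell cycle held Cdkn1a as its 1 member past the threshold, of 24 tested (4.17%, against 0.14% of all genes). DESeq2 put 4 members past the threshold, against 1.16% of tested genes. The median term was -0.12, below that of all genes, and 10 members were positive and 14 negative. Unlike Cdkn1a, the list had a positive median response, 0.33 in WT and 0.28 in DKO. In WT 11 members passed as higher and 4 as lower after stimulation, against 17.8% and 22.8% of all tested genes. In DKO 8 passed as higher and 2 as lower, against 16.2% and 16.8%. Cdkn1b, which codes for the related inhibitor p27, had 90.4 and 139 CPM in stimulated WT and 69.0 and 79.6 CPM in stimulated DKO libraries, with a term of -0.55 ± 0.23 (edgeR adjusted p = 0.389). Cdkn2d, which codes for p19INK4d, went the other way at 1.45 ± 0.35 (edgeR adjusted p = 0.152). Cdkn2a was under 1.4 CPM in every library. The members named beside Cdkn1a were singled out after their values had been seen.

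All 32 tested genes of the mitosis list passed as higher after stimulation in WT and in DKO, against 17.8% and 16.2% of all tested genes, with a median response of 1.69 and 2.22. None of them passed the interaction test, 7 were higher at an unadjusted p under 0.05 (21.9%, against 7.78% of all genes) and 31 terms were positive (96.9%, against 55.3%), with a median of 0.54. DESeq2 put 0 members past the threshold, against 1.16% of tested genes. How many members passed moved with the setting, as it did over all genes. Plk1, the mitotic kinase with the smallest p of the list, had 38.7, 15.9 and 30.3 CPM in untreated WT and 7.54, 13.1 and 11.7 CPM in untreated DKO libraries. After stimulation it had 89.8 and 74.6 CPM in WT and 93.5 and 58.5 CPM in DKO. WT and DKO overlapped after stimulation and not before, and the term was 1.28 ± 0.45 (edgeR adjusted p = 0.304). Of 38 genes of DNA replication and the G1 to S step none passed and 4 were higher without adjustment (10.5%, against 7.78% of all genes). Ccne1, the cyclin E1 gene, had a term of 0.99 ± 0.24 (edgeR adjusted p = 0.152).

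Tnfrsf8 (ENSMUSG00000028602, chr4:144993707-145041734, minus strand) codes for CD30, a TNF receptor family member of activated lymphocytes. It had 16.0, 16.9 and 14.3 CPM in untreated WT and 27.7, 19 and 19.9 CPM in untreated DKO libraries. After stimulation WT libraries had 2.61 and 1.62 CPM and DKO libraries 21.2 and 19.1 CPM. DKO libraries did not overlap WT in either state, and only stimulated WT cells were low. The WT response was -2.88 ± 0.25 and the DKO response -0.14 ± 0.20, and the interaction was 2.74 ± 0.31 (edgeR adjusted p = 0.00487). Of the left-out fits 9 of 10 kept the call, and without the unnumbered stimulated WT library the adjusted p was 0.0515.

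The window before the Tnfrsf8 start (RefSeq, GRCm38.p6 chr4:145315165-145315414, minus strand) is shown because it holds overlapping matches to the kB consensus, the binding motif of the NF-kB proteins that CD40 activates, with an AP-1 motif (TGACTCA) on its reverse strand and an E-box (CACGTG). The capitals mark these in that order.
Tnfrsf8: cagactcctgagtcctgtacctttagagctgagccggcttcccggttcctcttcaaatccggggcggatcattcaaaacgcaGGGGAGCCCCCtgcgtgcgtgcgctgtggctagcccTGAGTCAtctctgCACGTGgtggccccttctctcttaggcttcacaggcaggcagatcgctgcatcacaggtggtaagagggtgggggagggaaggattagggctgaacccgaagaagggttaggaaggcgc
A kB consensus match on either strand was found in 5 of the 19 windows (26.3%), those of Tnfrsf8, Col27a1, Idh2, Pim3 and Wnt10b, in 8.84% of the windows of tested genes and in 7.25% of all windows. The AP-1 motif was in 5.26% of the 19 and 3.04% of tested genes' windows, the E-box in 10.5% and 8.4%, the CRE motif TGACGTCA in 5.26% and 2.55%, and the NF-Y motif CCAAT in 21.1% and 35.6%. These shares describe letters in short windows and were not tested.

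Lrrc32 (ENSMUSG00000090958, chr7:98138490-98151388, plus strand) codes for GARP, which holds latent TGF-beta on the cell surface. It had 4.07, 5.20 and 4.03 CPM in untreated WT and 3.87, 2.08 and 3.20 CPM in untreated DKO libraries, and DKO was the lower group. After stimulation WT libraries had 0.67 and 0.43 CPM and DKO libraries 7.52 and 4.25 CPM, so that DKO was the higher group. WT fell by 2.99 on the log2 scale and DKO rose by 0.95, and the interaction, the largest of the called genes, was 3.94 ± 0.51 (edgeR adjusted p = 0.0120). The call was kept in 7 of 10 left-out fits. The adjusted p was 0.133 without the unnumbered and 0.0542 without the first stimulated WT library, and 0.0630 without the first stimulated DKO library.

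Ctla4 (ENSMUSG00000026011, chr1:60926159-60954991, plus strand) codes for an inhibitory receptor that binds CD80 and CD86. Its level was 8.15, 6.09 and 6.49 CPM in untreated WT and 2.19, 2.59 and 2.2 CPM in untreated DKO libraries. Stimulated WT libraries had 5.28 and 9.38 CPM and stimulated DKO libraries 10.8 and 13.1 CPM. DKO was thus clearly the lower group before and the higher after stimulation, though the stimulated difference of 0.70 did not pass (edgeR adjusted p = 0.0760). DKO rose by 2.35 ± 0.26, the WT response was 0.08 ± 0.25, and the interaction was 2.27 ± 0.36 (edgeR adjusted p = 0.0282). The call was kept in 3 of 10 left-out fits, and the adjusted p reached 0.152 without the first stimulated WT library. With library totals alone as scaling the adjusted p was 0.0542.

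Ctla4 is a T cell gene as well. The 17 T cell markers summed to 192 and 165 CPM in stimulated WT and 202 and 153 CPM in stimulated DKO libraries, which overlapped, and to between 57.0 and 109 CPM in untreated libraries. Lck made up most of this, with 130 to 187 CPM in stimulated libraries. Of the CD3 and T cell receptor genes, Trac had 1.95 and 0.65 CPM in stimulated WT and 1.08 and 1.15 CPM in stimulated DKO. Cd3g had 1.07 and 0.48 CPM in stimulated WT and 0.31 and 0.49 CPM in stimulated DKO. Cd3e was highest in the first stimulated DKO library at 0.72 CPM, and Cd3d reached 0.21 CPM. Of 6 tested T cell markers 5 had a positive term, none passed and the median was 0.68. Their part in the Ctla4 result was not tested. The list of B1 and age-associated B cell genes held Ctla4 as its 1 member past the threshold of 18 tested (5.56%, against 0.14% of all genes). Without adjustment 4 were higher (22.2%, against 7.78%) and 0 lower.

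Adm (ENSMUSG00000030790, chr7:110226868-110229027, plus strand), which codes for the peptide adrenomedullin, had 15.5, 17.5 and 15.2 CPM in untreated WT and 25.8, 21 and 20.9 CPM in untreated DKO libraries. It had 5.74 and 5.61 CPM in stimulated WT and 33.9 and 28.2 CPM in stimulated DKO. WT libraries fell and DKO libraries rose, without overlap in either state, and the interaction was 1.96 ± 0.22 (edgeR adjusted p = 0.00487). The call was lost in 1 of 10 left-out fits, at an adjusted p of 0.0515 without the unnumbered stimulated WT library.

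Serpine2 (ENSMUSG00000026249, chr1:79771914-79838897, minus strand), which codes for the protease inhibitor nexin-1, was near the lower end of detection in WT, with 0.54 to 1.08 CPM untreated and 0.41 and 0.59 CPM stimulated. DKO libraries had 2.19, 3.15 and 2.33 CPM untreated and 17.0 and 12.4 CPM stimulated. It was the gene of the 20 with the largest DKO to WT difference in stimulated cells, 4.86, and the interaction was 3.19 ± 0.49 (edgeR adjusted p = 0.0251). Wnt10b (ENSMUSG00000022996, chr15:98668593-98676031, minus strand), a Wnt ligand gene, rose in both genotypes, from between 12.1 and 15.8 CPM to 27.1 and 26.1 CPM in WT and from between 14.7 and 20.1 CPM to 83.7 and 83.3 CPM in DKO. The stimulated pairs agreed closely within each genotype, and the interaction was 1.33 ± 0.21 (edgeR adjusted p = 0.0282). Serpine2 kept its call in 4 and Wnt10b in 3 of 10 left-out fits. The highest adjusted p, 0.166 for Serpine2 and 0.184 for Wnt10b, came without the first and without the unnumbered stimulated WT library. Without the libraries that read as female the adjusted p of Serpine2 was 0.0503.

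Of 22 tested cytokine and chemokine genes none passed, 8 were higher without adjustment (36.4%, against 7.78% of all genes) and 0 lower, and the median term was 0.58. DESeq2 put 1 member past the threshold, against 1.16% of tested genes, and the count moved with the setting, as it did over all genes. Il10, the member with the smallest p, had 6.79, 5.02 and 3.54 CPM in untreated WT and 1.48, 0.38 and 0.20 CPM in untreated DKO libraries, and at most 0.36 CPM in any stimulated library. Its term of 4.48 ± 1.32 (edgeR adjusted p = 0.261) thus rests on levels near 0 after stimulation. Socs3, a feedback inhibitor of cytokine receptors, had 1.28 and 2.97 CPM in stimulated WT and 10.8 and 7.28 CPM in stimulated DKO libraries, against 10.6 to 15.5 CPM in untreated ones. The term of 2.26 ± 0.40 narrowly missed the threshold (edgeR adjusted p = 0.0518).

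Signalling and stress genes past the threshold were Gadd45b, Pim3, Inka2, Ncs1 and Nlrc3. Gadd45b (ENSMUSG00000015312, chr10:80765907-80768038, plus strand), a stress sensor gene that NF-kB switches on, had 78.9 to 82.7 CPM in untreated WT and 88.7 to 113 CPM in untreated DKO libraries. It had 18.6 and 14.1 CPM in stimulated WT and 70.2 and 48.1 CPM in stimulated DKO. Both genotypes fell, WT by 2.31 and DKO by 0.71, and the interaction was 1.59 ± 0.24 (edgeR adjusted p = 0.0251). Pim3 (ENSMUSG00000035828, chr15:88746389-88749929, plus strand), a survival kinase gene, followed the same course. It had 44.5 to 46.0 CPM in untreated WT and 52.6 to 57.6 CPM in untreated DKO libraries, then 11.6 and 11.5 CPM in stimulated WT and 34.6 and 26.9 CPM in stimulated DKO. The interaction was 1.15 ± 0.18 (edgeR adjusted p = 0.0251).

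Inka2 (ENSMUSG00000048458, chr3:105611915-105628158, plus strand), which codes for an inhibitor of the kinase PAK4, had 2.56 to 3.77 CPM in untreated WT and 4.54 to 5.54 CPM in untreated DKO libraries. It fell to 1.18 and 1.56 CPM in stimulated WT and rose to 12.7 and 11.3 CPM in stimulated DKO. The interaction was 2.48 ± 0.34 (edgeR adjusted p = 0.0166). Ncs1 (ENSMUSG00000062661, chr2:31135835-31186001, plus strand), a calcium sensor gene, was lower in DKO before stimulation, at 4.73 to 5.80 CPM against 6.29 to 6.98 CPM in WT. It was higher in DKO after it, at 10.2 and 9.11 CPM against 3.69 and 3.45 CPM. The interaction was 1.73 ± 0.27 (edgeR adjusted p = 0.0251). Of 10 left-out fits Inka2 kept its call in 5 and Gadd45b, Pim3 and Ncs1 in 3. Without the unnumbered stimulated WT library the adjusted p was 0.182 for Gadd45b, 0.178 for Pim3 and 0.178 for Ncs1. Inka2 reached 0.120 without the first stimulated WT library.

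Nlrc3 (ENSMUSG00000049871, chr16:3762871-3794496, minus strand) was the 1 gene past the threshold whose response in DKO lay below that in WT. It had 7.19, 6.33 and 6.19 CPM in untreated WT and 4.25, 4.98 and 4.80 CPM in untreated DKO libraries. After stimulation WT libraries had 19.4 and 21.5 CPM, and DKO libraries 4.74 and 5.52 CPM. WT rose by 1.64 ± 0.17, while the DKO response was 0.13 ± 0.18, and the groups did not overlap in either state. The interaction was -1.51 ± 0.25 (edgeR adjusted p = 0.0340). The call was kept in 3 of 10 left-out fits, and the adjusted p was 0.208 without the unnumbered stimulated WT library. Below the threshold, Slamf7, a surface receptor gene of plasma cells, came closest among the listed genes, with 197 and 190 CPM in stimulated WT, 106 and 104 CPM in stimulated DKO and a term of -1.10 ± 0.19 (edgeR adjusted p = 0.0508). Slc1a4, a neutral amino acid transporter gene, followed at -1.14 ± 0.21 (edgeR adjusted p = 0.0533).

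Fscn1 (ENSMUSG00000029581, chr5:142946098-142958940, plus strand), which codes for the actin-bundling protein fascin, had 115, 90.2 and 76.4 CPM in untreated WT and 113, 135 and 133 CPM in untreated DKO libraries. It fell to 8.92 and 7.82 CPM in stimulated WT and to 62.8 and 33.4 CPM in stimulated DKO. Stimulated DKO libraries lay between stimulated WT and untreated ones, and the interaction was 2.09 ± 0.34 (edgeR adjusted p = 0.0282). Fascin also marks mature dendritic cells. The 13 dendritic cell markers summed to 618 and 592 CPM in stimulated WT and 391 and 484 CPM in stimulated DKO libraries, where Tcf4, also a B cell gene, gave 210 to 438 CPM. Of 9 tested members 7 had a positive term (77.8%, against 55.3% of all genes), with a median of 0.50. Without adjustment 2 were higher (22.2%, against 7.78%). Flt3 had 13.3 and 15.95 CPM in stimulated WT and 32.5 and 24.6 CPM in stimulated DKO. Xcr1 had 8.19 and 6.84 CPM against 13.9 and 11.9 CPM, and Zbtb46 17.6 and 23 CPM against 29.9 and 32.4 CPM. These 3 were higher in stimulated DKO as Fscn1 was. Zbtb46 was already higher in untreated DKO, at 49.3 to 60.2 CPM against 39.65 to 43.4 CPM in untreated WT. Sirpa went the other way, at 127 and 112 CPM in stimulated WT and 84.6 and 75.6 CPM in stimulated DKO. Tcf4 and Ccr9 were also lower in both stimulated DKO libraries. Clec10a was at 0 in all 4 stimulated libraries and Clec9a in 3 of them. The part of such cells in the Fscn1 result was not tested.

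Col27a1 (ENSMUSG00000045672, chr4:63132241-63253228, plus strand), a fibrillar collagen gene, had 6.69, 3.94 and 5.41 CPM in untreated WT and 5.93, 7.44 and 6.53 CPM in untreated DKO libraries. It fell to 2.15 and 1.4 CPM in stimulated WT and rose to 21 and 14.2 CPM in stimulated DKO, and the interaction was 2.99 ± 0.39 (edgeR adjusted p = 0.0120). Tubb6 (ENSMUSG00000001473, chr18:67523787-67535819, plus strand), a beta-tubulin gene, had 16.3 to 20.8 CPM in untreated libraries of both genotypes and 21.3 and 16.4 CPM in stimulated DKO. Stimulated WT libraries alone were low, at 6.51 and 4.91 CPM, and the interaction was 1.87 ± 0.25 (edgeR adjusted p = 0.0120). Lad1 (ENSMUSG00000041782, chr1:135746336-135761080, plus strand), which codes for the anchoring filament protein ladinin, had 10.4 and 5.66 CPM in stimulated WT and 53.3 and 50.7 CPM in stimulated DKO, against 6.78 to 12.7 CPM in untreated libraries. Here DKO rose by 2.35 while the WT response of 0.18 ± 0.25 did not pass, and the interaction was 2.16 ± 0.35 (edgeR adjusted p = 0.0282).

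Enzyme genes past the threshold were Alpl and Idh2. Alpl (ENSMUSG00000028766, chr4:137469044-137523695, minus strand), the tissue-nonspecific alkaline phosphatase gene, had 55.0 to 58.2 CPM in untreated WT and 42.3 to 52.2 CPM in untreated DKO libraries. It fell to 13.6 and 9.12 CPM in WT and to 34.8 and 26.1 CPM in DKO, and the interaction was 1.69 ± 0.24 (edgeR adjusted p = 0.0191). Idh2 (ENSMUSG00000030541, chr7:79744594-79765140, minus strand), which codes for the mitochondrial NADP-dependent isocitrate dehydrogenase, had 31.9 to 35.9 CPM in all untreated libraries. It had 27.7 and 26.5 CPM in stimulated WT and 60.0 and 53.3 CPM in stimulated DKO, and its term, at 1.12 ± 0.16 (edgeR adjusted p = 0.0175), was the smallest of those past the threshold. Glipr1 (ENSMUSG00000056888, chr10:111821353-111838536, minus strand) had 15 and 15.6 CPM in stimulated WT and 36.9 and 24.6 CPM in stimulated DKO, with a term of 1.69 ± 0.27 (edgeR adjusted p = 0.0282). Glipr1 overlaps Krr1 on the other strand, which had 22401 counts over the 10 libraries, and since the strand setting of the counting is not given its value is uncertain.

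Of the genes of the last 3 paragraphs, Col27a1 kept its call in 8 of 10 left-out fits, Tubb6 in 7, Lad1 in 5, Alpl in 4, and Fscn1, Idh2 and Glipr1 in 3. Without the unnumbered stimulated WT library the adjusted p ranged up to 0.235 for Fscn1, and it was 0.119 for Tubb6, 0.123 for Col27a1, 0.133 for Alpl, 0.144 for Idh2, 0.162 for Lad1 and 0.178 for Glipr1. Without the libraries that read as female that of Fscn1 was 0.0503.

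**Figure D4:**
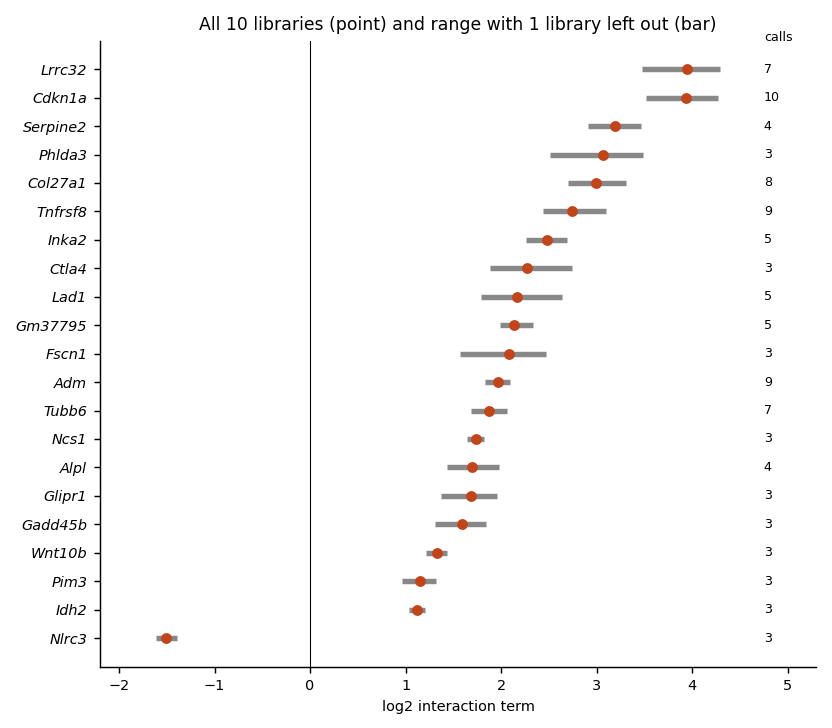
Log2 interaction term of the 21 genes with all 10 libraries (points) and its range over the fits with 1 library left out (bars), with the number of those 10 fits in which the gene passed (right). No bar crosses 0, while the number of calls runs from 10 for Cdkn1a to 3 for 10 of the genes.

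The count of genes past the threshold turned on single libraries far more than the terms did. Leaving out an untreated WT library gave 7 genes without replicate 1, 47 without replicate 2 and 8 without replicate 3, and leaving out an untreated DKO library 72, 5 and 11 in that order. Without the first stimulated WT library 10 genes passed, and without the unnumbered one 1, which was Cdkn1a. Without the first stimulated DKO library 3 passed. Without the second, which left 1 stimulated DKO library that was assumed to vary like the other groups, 1244 passed. All 21 genes kept the sign of their term in each of these fits. The 10 genes that kept their call in 3 fits did so without the second untreated WT, the first untreated DKO or the second stimulated DKO library, and lost it without any other.

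Of 35 genes of MYC and ribosome biogenesis none passed, 19 were higher without adjustment (54.3%, against 7.78% of all genes) and 0 lower, and 32 terms were positive (91.4%, against 55.3%), with a median of 0.47. DESeq2 put 2 members past the threshold, against 1.16% of tested genes. Nolc1, a nucleolar assembly factor gene with the smallest p of the list, had 388 to 414 CPM in untreated WT and 405 to 477 CPM in untreated DKO libraries. It had 231 and 173 CPM in stimulated WT and 395 and 352 CPM in stimulated DKO, with a term of 0.75 ± 0.19 (edgeR adjusted p = 0.180). Myc had 181 and 160 CPM in stimulated WT and 424 and 322 CPM in stimulated DKO, against 310 to 553 CPM in untreated libraries, and a term of 0.73 ± 0.25 (edgeR adjusted p = 0.292). For both genes the stimulated WT libraries were the lowest. Over the list the median response was -0.73 in WT and -0.30 in DKO. As lower, 28 genes passed in WT and 11 in DKO, against 22.8% and 16.8% of all tested genes.

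Of 50 tested cytosolic ribosomal protein genes none passed, 11 were higher (22%, against 7.78% of all genes) and 0 lower without adjustment, and 49 terms were positive (98%, against 55.3%), with a median of 0.36. DESeq2 put 1 member past the threshold, against 1.16% of tested genes. The median response of the list was -0.25 in WT and -0.007 in DKO. Its median DKO to WT difference was 0.445 in untreated and 0.788 in stimulated cells. Rpl12, the member with the smallest p, rose far more than that median in both genotypes. It had 122 to 146 CPM in untreated libraries, 1034 and 1015 CPM in stimulated WT and 2504 and 1665 CPM in stimulated DKO. The term was 0.85 ± 0.21 (edgeR adjusted p = 0.159). Ribosomal protein genes have many near-identical pseudogene copies that can share reads with them, so these values are uncertain. Of 28 genes of glycolysis and hypoxia none passed. Without adjustment 11 were higher (39.3%, against 7.78% of all genes) and 1 lower (3.57%, against 4.22%). Of their terms 26 were positive (92.9%, against 55.3%), with the highest median term of the 30 pathway lists, 0.63. DESeq2 put 0 members past the threshold, against 1.16% of tested genes. How many members passed moved with the setting, as it did over all genes. Mif, a cytokine gene that hypoxia induces, had the smallest p at 0.99 ± 0.30 (edgeR adjusted p = 0.262).

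**Figure D5:**
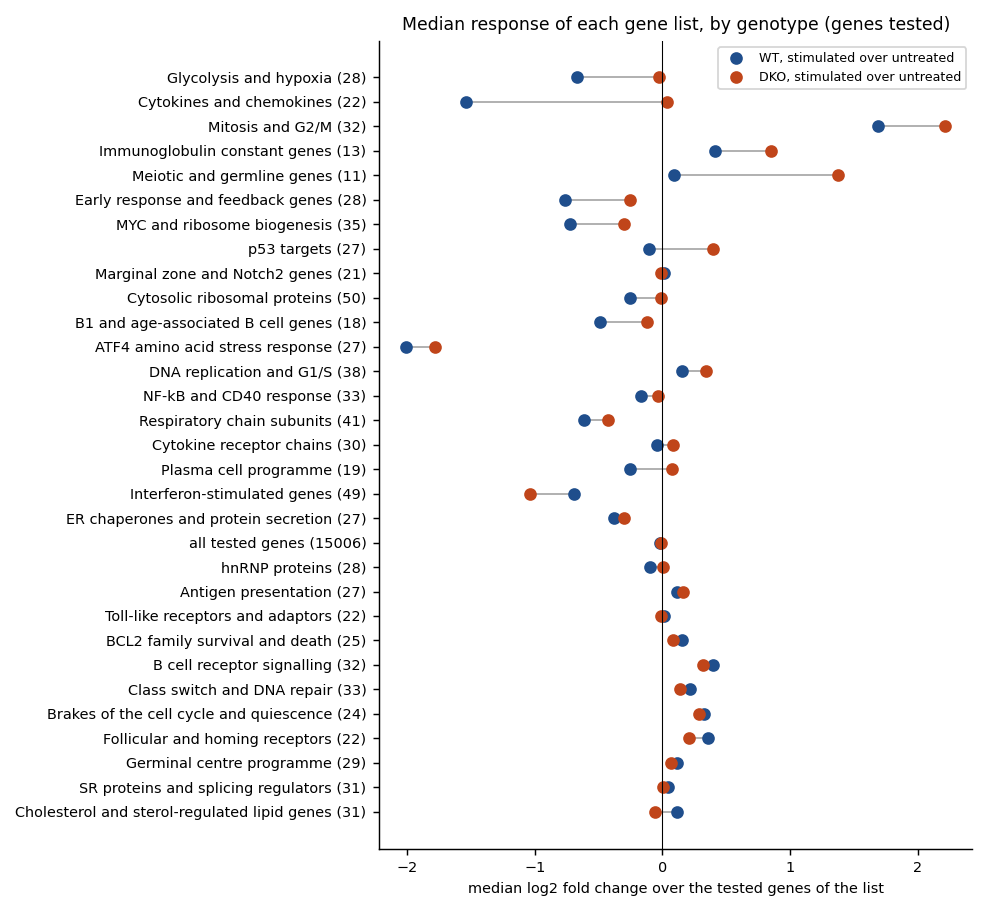
Median log2 fold change of stimulated over untreated cells in WT (blue) and DKO (orange) over the tested genes of each of the 30 pathway lists and of all tested genes, ordered by the median interaction term. The points lie apart for glycolysis, cytokines and the p53 list, such as -0.11 in WT and 0.40 in DKO for the p53 list, and together for all tested genes.

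Of 28 early response genes, which receptor engagement switches on within minutes to hours, 15 passed as lower after stimulation in WT and 10 in DKO. Of all tested genes, 22.8% and 16.8% did so. As higher, 4 passed in WT and 3 in DKO, against 17.8% and 16.2% of all tested genes. None passed the interaction test, and the median term was 0.49. Without adjustment 11 were higher (39.3%, against 7.78% of all genes) and 1 lower (3.57%, against 4.22%). DESeq2 put 3 members past the threshold, against 1.16% of tested genes, and the count moved with the setting, as it did over all genes. Fosl2, an AP-1 subunit gene, had 7.41 to 10.8 CPM in untreated WT and 6.62 to 7.53 CPM in untreated DKO libraries. It had 0.87 and 0.76 CPM in stimulated WT and 2.47 and 2.91 CPM in stimulated DKO, with a term of 2.03 ± 0.36 (edgeR adjusted p = 0.0517). Jun, its partner, had 6.00 and 7.71 CPM in stimulated WT and 22.3 and 22.2 CPM in stimulated DKO, with a term of 1.45 ± 0.27 (edgeR adjusted p = 0.0594). For both the stimulated WT libraries were the lowest of the 10.

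Of 33 genes of the NF-kB and CD40 response none passed, 6 were higher without adjustment (18.2%, against 7.78% of all genes) and 0 lower. The median term was 0.24. DESeq2 put 3 members past the threshold, against 1.16% of tested genes. Cd80, a ligand of the T cell receptors CD28 and CTLA-4, had 26.2 to 40.6 CPM in untreated WT and 33.2 to 43.3 CPM in untreated DKO libraries, which overlapped. It had 19.6 and 22.8 CPM in stimulated WT and 64.0 and 55.4 CPM in stimulated DKO, with a term of 1.33 ± 0.25 (edgeR adjusted p = 0.0597). Cd86, the related ligand, had 42.4 and 30.0 CPM in stimulated WT and 66.6 and 69.6 CPM in stimulated DKO, with a term of 0.95 ± 0.24 (edgeR adjusted p = 0.180). In both cases stimulated DKO libraries lay above stimulated WT libraries.

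Of 32 genes of B cell receptor signalling none passed, 1 was higher (3.12%, against 7.78% of all genes) and 4 lower (12.5%, against 4.22%) without adjustment, and the median term was -0.04. Cr2, which codes for the complement receptor CD21, had the smallest p, with 106 and 158 CPM in stimulated WT and 57.0 and 78.8 CPM in stimulated DKO, and a term of -1.30 ± 0.29 (edgeR adjusted p = 0.127). Of 31 cholesterol and sterol-regulated genes 6 terms were positive (19.4%, against 55.3% of all genes), 4 were lower (12.9%, against 4.22%) and 1 higher (3.23%, against 7.78%) without adjustment, and the median was -0.15. Abca1, a cholesterol efflux pump gene, had a term of -1.65 ± 0.52 (edgeR adjusted p = 0.271). SR proteins and splicing regulators had a median of -0.13. Without adjustment 3 of 31 were lower (9.68%, against 4.22%) and 1 higher (3.23%, against 7.78%). Clk1, the SR protein kinase gene, stood at -0.54 ± 0.18 (edgeR adjusted p = 0.292). Of 28 hnRNP genes 3 were higher (10.7%, against 7.78%) and 0 lower without adjustment, with Hnrnpa3 at 0.73 ± 0.17 (edgeR adjusted p = 0.130).

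Programmes of B cell fate were mixed. Of 29 germinal centre genes none passed. Without adjustment 4 were higher (13.8%, against 7.78% of all genes) and 4 lower (13.8%, against 4.22%). Cxcr4, the receptor that guides cells to the dark zone, had 39.4 to 40.4 CPM in untreated WT and 27.3 to 29.9 CPM in untreated DKO libraries, then 26.2 and 26.6 CPM in stimulated WT and 32.3 and 34.6 CPM in stimulated DKO. The order of the genotypes was thus opposite in the untreated and stimulated libraries, and the term was 0.80 ± 0.15 (edgeR adjusted p = 0.0615). Of 13 immunoglobulin constant genes Ighg1 had the smallest p, with 137 and 123 CPM in stimulated WT and 241 and 250 CPM in stimulated DKO and a term of 1.07 ± 0.28 (edgeR adjusted p = 0.189). Of 11 tested meiotic and germline genes none passed. Stag3, a meiotic cohesin subunit gene, had 2.41 to 5.08 CPM in untreated WT, 11.8 to 24.3 CPM in untreated DKO, 2.97 and 2.05 CPM in stimulated WT and 74.0 and 75.8 CPM in stimulated DKO libraries. Its term was 2.58 ± 0.48 (edgeR adjusted p = 0.0533), and DKO libraries were above WT in both states.

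In the other lists none of the members passed in the main fit either. The members with the smallest p were Marchf1 at -1.26 ± 0.40 for antigen presentation (edgeR adjusted p = 0.277) and Irak4 at -0.52 ± 0.17 for Toll-like receptors (edgeR adjusted p = 0.282). For interferon-stimulated genes it was Ifi208 at -4.02 ± 1.25 (edgeR adjusted p = 0.269). Its WT libraries differed widely, with 0.96, 8.66 and 0.64 CPM untreated and 2.72 and 10.9 CPM stimulated. DKO libraries had 7.09, 12.3 and 8.19 CPM untreated and 0.98 and 1.33 CPM stimulated. For ER chaperones Sec61a1 stood at 0.46 ± 0.17, for respiratory chain subunits Cox5a at 0.46 ± 0.18 and for class switch and DNA repair Xrcc6 at 0.37 ± 0.15 (edgeR adjusted p = 0.337, 0.361 and 0.366). All 27 tested genes of the ATF4 amino acid response passed as lower after stimulation in both genotypes. Of all tested genes, 22.8% did so in WT and 16.8% in DKO. The median interaction of the 27 was 0.27.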

How the data were processed

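The authors deposited raw counts per Ensembl gene in 3 tables (untreated, stimulated and additional WT cells), 1 column per library. Per the submitters' processing notes, FastQC 0.10.1, cutadapt 1.9.1, HISAT2 2.2.1 and HTSeq 0.6.1 were used with GRCm39. Strand setting and annotation release are not given there. Libraries were made from poly(A) RNA with a NEBNext Ultra kit, per the labels. The tables of untreated and stimulated cells held 55359 and 56691 genes, 55349 of them in both, and for 1357 of these the exonic length differed between the tables. The 12 deposited columns of FPKM values were not used.

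Counts were joined by identifier and fitted once over 10 libraries with 4 group means in edgeR 4.0.16 (R 4.3.3): TMM scaling (factors from 0.896 to 1.06), filterByExpr (at least 10 counts, 15 in total), quasi-likelihood fit and two-sided test with 6 residual degrees of freedom, and Benjamini-Hochberg adjustment over all tested genes at 0.05. Standard errors are the absolute log2 term over the square root of F. Replicates of every group differed by more than sampling noise. The members, gene lists (30 pathways, 8 marker lists) and the naming rule were chosen with earlier results of these data known. The rule took both targeted genes, the 12 largest terms in each direction past the threshold with 5 CPM or more in a group, the 10 with the smallest p at 20 CPM or more, and up to 4 called members of each list, or else the member with the smallest p. Unnamed genes and immunoglobulin V, D and J segments were left out. No test was run over lists. The pipeline was tested on simulated counts. RefSeq tables gave the printed sequences. Alternatives used DESeq2 1.42.0 and limma 3.58.1, other scalings and filters, left-out libraries and a replicate block. A term for sex, limma-voom and the p53 motif were added after the data were seen.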

Additional observations from a re-analysis of the deposited data

Results flagged for a closer look

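The 21 genes that the text describes are listed again here. By that same test and fit, their response in DKO cells differed from that in WT cells. The log2 interaction terms were 3.94 for Lrrc32, 3.93 for Cdkn1a, 3.19 for Serpine2, 3.07 for Phlda3 and 2.99 for Col27a1, each with a fitted response that was negative in WT and less negative or positive in DKO. They were 2.74 for Tnfrsf8, 2.48 for Inka2, 2.27 for Ctla4, 2.16 for Lad1, 2.14 for Gm37795 and 2.09 for Fscn1. Smaller terms were 1.96 for Adm, 1.87 for Tubb6, 1.73 for Ncs1, 1.69 for Alpl, 1.69 for Glipr1 and 1.59 for Gadd45b. The smallest were 1.33 for Wnt10b, 1.15 for Pim3 and 1.12 for Idh2, and Nlrc3 alone was negative at -1.51. Groups of 2 or 3 libraries are too small for a check of single outlying libraries.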

How the results depend on the processing

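All 21 genes kept the sign of their interaction term in every setting in which they were fitted, but the count past the threshold did not hold. It was 174 with DESeq2 (all 21 among them), 491 of 26882 genes without a filter on low counts, 1 with a minimum log2 fold change of 1, 62 without the libraries that read as female (19 of the 21 among them), 81 with a term for sex and 2 where both additional libraries joined the untreated WT group. RLE scaling gave 24, limma-voom 20 and the stricter filter 23. Same-numbered libraries correlated between -0.297 and 0.193 in their deviations from group means over 10 pairs. Libraries of different numbers were not compared in this way, so these correlations alone cannot decide whether the numbers pair libraries. The first untreated DKO library (Xist at 2044 CPM) and the first stimulated DKO library (0 CPM) were not from the same mouse. The replicate block below still put them in the same block. A replicate block, which left out the unnumbered WT library, gave 1 interaction call (Cdkn1a, edgeR adjusted p = 0.0332), 2862 calls for the WT response, and 876 and 487 for DKO against WT in untreated and stimulated cells. A minimum log2 fold change of 1 left 999 calls for the WT and 890 for the DKO response, and 21 and 87 for DKO against WT in untreated and stimulated cells. The main counts for the last pair were 1960 and 3429. The additional libraries gave 2437, 1887, 768 and 305 in the same order. Without the female-reading libraries DKO against WT in untreated cells had 1205. With 1 library left out, the interaction ran from 1 to 1244 calls, the WT response from 3557 to 7031, the DKO response from 3965 to 5074, and DKO against WT from 813 to 2838 in untreated and from 954 to 4752 in stimulated cells. The terms of the targeted genes, which did not pass, changed sign: Hnrnpa1 was 0.066 with the additional libraries. With 1 library left out, Hnrnpa1 ran from -0.47 to 0.30 and Hnrnpa2b1 from -0.30 to 0.19, each lowest without the first and highest without the second untreated DKO library. The cause of these shifts was not tested. With 2 stimulated libraries per genotype and 6 residual degrees of freedom, a gene that did not pass is not shown to respond alike.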
